A study of Homo sapiens with 6 samples.

Results

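The 9 enzymes of serine synthesis and folate one-carbon metabolism (PHGDH, PSAT1, PSPH, SHMT1, SHMT2, MTHFD1, MTHFD2, MTHFD1L and ALDH1L2) were followed after SF3B4 siRNA. They were chosen by name, and the Ensembl identifiers of the deposited tables were matched to symbols. All 9 were found among the 50868 listed genes, and 8 passed the filter on low values (3 or more of the 6 libraries at 1 FPKM or above).

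Serine is built from the glycolytic intermediate 3-phosphoglycerate by PHGDH, PSAT1 and PSPH, acting in that order. The SHMT enzymes then split serine into glycine and a carbon unit carried on folate. The mitochondrial enzymes SHMT2, MTHFD2, MTHFD1L and ALDH1L2 oxidise that unit to formate or carbon dioxide, and the cytosolic enzymes SHMT1 and MTHFD1 handle it for purine, thymidylate and methionine synthesis. Proliferating cancer cells are known to draw on this pathway, and ATF4, the transcription factor of the amino acid response, is known to activate many of its genes.

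FPKM counts fragments per kilobase of transcript, scaled to the fragment total of the library, so levels of different genes can be compared per length. The libraries came from cells transfected with SF3B4 siRNA (3 libraries) or with a scramble siRNA called NC siRNA, here control siRNA (3 libraries). SF3B4 is a subunit of the SF3b complex that recognises the branch point of introns. Both groups carry the label A549, a human lung adenocarcinoma line, and were grown in RPMI medium with serum. The control libraries have the genotype label WT. SF3B4 siRNA replicates 1 to 3 carry the genotype labels SF3B4, SF3B5 and SF3B6 knockdown, while the title and treatment labels of all 3 name SF3B4, which was followed. The sources used here do not give the siRNA sequences, the dose or the harvest time. In bulk RNA, fewer cells of one state and less RNA per cell cannot be told apart.

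SF3B4 itself had 22.0, 17.7 and 22.3 FPKM after SF3B4 siRNA and 88.6, 92.0 and 93.8 FPKM after control siRNA, or 22.6% of the control mean (log2 fold change -2.15 ± 0.10, SE; limma adjusted p = 8.8e-05). The implied depth was 17508446 to 18529695 fragments per library, and a gene at 1 FPKM then held 17.5 to 18.5 fragments per kilobase of transcript. Column headers name another lung line, H1650. Of 14 genes typical of A549, 6 (AKR1C1, AKR1C2, ALDH1A1, ALDH3A1, GPX2 and CPS1) were below 1 FPKM in every library, and AKR1B10 was at 1.99 to 2.25 FPKM after SF3B4 siRNA and 0.791 to 0.979 FPKM after control siRNA. The 14 genes summed to 285 to 305 FPKM in SF3B4 siRNA libraries and 285 to 297 FPKM in control siRNA libraries. Of the 7 tested 3 were called higher and 1 lower, beside 16.0% higher and 18.1% lower among all tested genes. AKR1B10, one of those called higher, passed the filter through the SF3B4 siRNA libraries only, so a rise was the direction it could show. VIM fell to 1.54 FPKM after SF3B4 siRNA, against 3.46 FPKM after control siRNA. The summed level of 5 epithelial markers was 1242 to 1326 FPKM in SF3B4 siRNA libraries and 1096 to 1280 FPKM in control siRNA libraries. Of these, CDH1 (75.0 FPKM after SF3B4 siRNA, 41.2 FPKM after control siRNA) and EPCAM (27.2 FPKM after SF3B4 siRNA, 21.3 FPKM after control siRNA) were called higher. Of 7 fibroblast markers 6 were below 1 FPKM throughout. The immune markers PTPRC and MS4A1 were listed at 0, and CD3E was at no more than 0.00788 FPKM. The immune marker CD68, in contrast, was at 22.3 to 30.6 FPKM over the libraries and was not called. The fibroblast marker COL1A1 (2.27 FPKM after SF3B4 siRNA, 1.33 FPKM after control siRNA) and the immune marker CD14 (5.62 FPKM after SF3B4 siRNA, 2.59 FPKM after control siRNA) were also called higher. All these marker calls are to be read against the shares among all tested genes. The part of these marker changes in the results was not tested. The cells are therefore described only as labelled A549.

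After SF3B4 siRNA, the second and last steps of serine synthesis (PSAT1, PSPH) and the mitochondrial SHMT2 fell, and the cytosolic SHMT1 rose. The entry enzyme PHGDH did not pass the test. The SHMT1 call was lost in 8 of 16 alternative fits and the SHMT2 call in 2 of 16. Of the 8 tested enzymes 3 were called lower and 1 higher, beside 18.1% lower and 16.0% higher among all 9685 tested genes. This balance turned with the scaling, to 1803 higher and 1579 lower under median centring, 1738 and 1636 under quantile normalization and 1641 and 1629 under TPM, while the same 4 enzymes were called each time. Calls in either direction were thus 4 of 8 enzymes, against a background of 34.1%. The groups did not overlap in 6 of the 8, where 49.5% of tested genes showed no overlap. The median log2 fold change was -0.19 over the 8 enzymes and 0.00 over all tested genes. The results that follow describe single genes, since calls and separated groups were common among all tested genes.

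**Figure D1:**
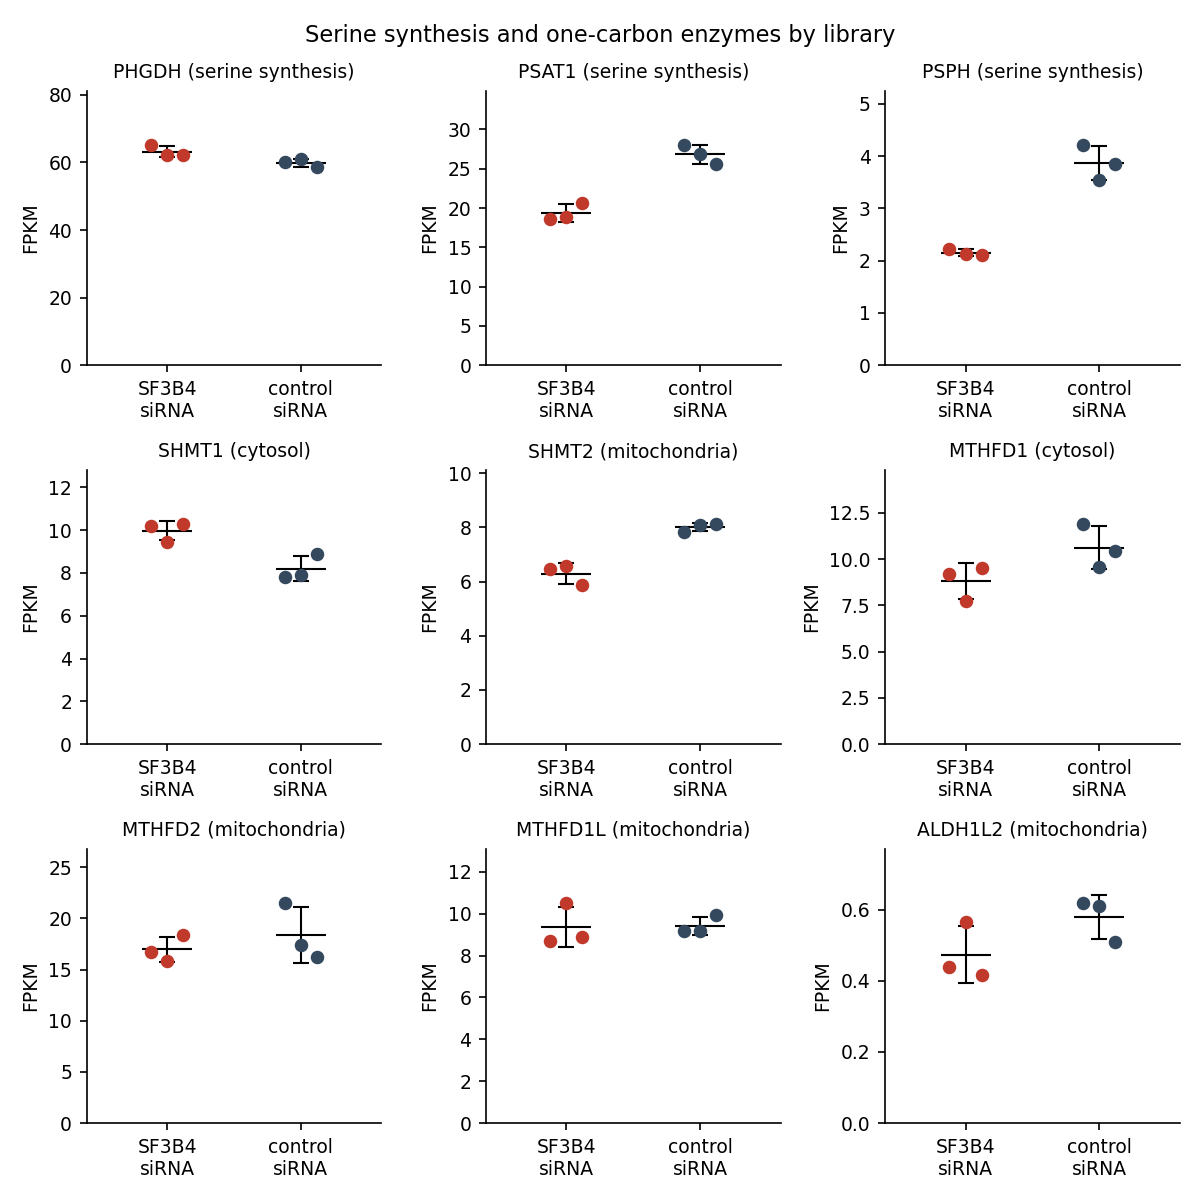
FPKM of the 9 enzymes in each library (points), with the group mean and SD (bars), SF3B4 siRNA on the left and control siRNA on the right of each panel; every vertical axis starts at 0. The groups are separate for PSAT1, PSPH and SHMT2 (lower after SF3B4 siRNA) and for SHMT1 (higher), narrowly separate for PHGDH and MTHFD1, and overlapping for MTHFD2, MTHFD1L and ALDH1L2.

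PHGDH, phosphoglycerate dehydrogenase, takes 3-phosphoglycerate out of glycolysis (ENSG00000092621, chr1:119648411-119744226, plus strand; all gene positions are from GENCODE 29 on GRCh38). It was the most abundant of the 9, at 65.0, 62.2 and 62.3 FPKM in SF3B4 siRNA libraries and 60.0, 60.9 and 58.6 FPKM in control siRNA libraries. The SF3B4 siRNA values all lay above the control values, by a small margin. The log2 fold change of PHGDH was 0.08 (95% interval -0.05 to 0.21), and the limma test did not call it (adjusted p = 0.31).

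PSAT1, the transaminase that makes phosphoserine (ENSG00000135069, chr9:78297143-78330093, plus strand), fell to 72.2% of its control mean. It had 18.6, 18.8 and 20.6 FPKM in SF3B4 siRNA libraries, against 28.0, 26.8 and 25.6 FPKM in control siRNA libraries. All 3 SF3B4 siRNA values were below all 3 control values. The fold change on the log2 scale was -0.47 ± 0.07 (SE; limma adjusted p = 0.0026).

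PSPH, the phosphatase that releases free serine (ENSG00000146733, chr7:56011051-56051604, minus strand), fell most among the 9, to 55.7% of its control mean. Its levels were 2.23, 2.13 and 2.11 FPKM in SF3B4 siRNA libraries and 4.21, 3.55 and 3.86 FPKM in control siRNA libraries. The SF3B4 siRNA libraries lay close together and well below the lowest control library. The log2 fold change of PSPH was -0.81 ± 0.10 (SE; limma adjusted p = 0.0011). It remained called in all 15 alternatives that tested it.

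Levels can also be set against PHGDH within a library, where any scaling of the whole library cancels. PSAT1 transcripts per PHGDH transcript stood at 0.286, 0.303 and 0.331 in SF3B4 siRNA libraries and 0.466, 0.441 and 0.437 in control siRNA libraries. For PSPH the ratio to PHGDH was 0.0342, 0.0342 and 0.0339 in SF3B4 siRNA libraries and 0.0701, 0.0583 and 0.0658 in control siRNA libraries. Within serine synthesis, the transcripts of the later steps were thus lower relative to that of the first step in every SF3B4 siRNA library. These ratios are descriptions and were not tested.

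The promoters of PSAT1, PHGDH and SHMT1 are shown because PSAT1 fell, SHMT1 rose and PHGDH was not called, and that of MTHFD1L because it holds an element known to bind ATF4. Each runs from 250 bases before to 50 bases after the RefSeq start (GRCh38.p14), 5′ to 3′ on the gene's strand, with CCAAT, its reverse complement ATTGG and, in MTHFD1L, the composite element TGATGNAA in capitals. The windows are chr9:78296875-78297174 (plus strand) for PSAT1, chr1:119711684-119711983 (plus strand) for PHGDH, chr17:18363501-18363800 (minus strand) for SHMT1 and chr6:150866083-150866382 (plus strand) for MTHFD1L.
PSAT1: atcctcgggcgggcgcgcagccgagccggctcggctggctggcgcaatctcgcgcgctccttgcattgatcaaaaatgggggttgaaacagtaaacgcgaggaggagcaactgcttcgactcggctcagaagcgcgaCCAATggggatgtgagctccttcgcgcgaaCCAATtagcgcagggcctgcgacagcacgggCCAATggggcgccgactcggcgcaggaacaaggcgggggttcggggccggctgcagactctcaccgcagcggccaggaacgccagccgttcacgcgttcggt
PHGDH: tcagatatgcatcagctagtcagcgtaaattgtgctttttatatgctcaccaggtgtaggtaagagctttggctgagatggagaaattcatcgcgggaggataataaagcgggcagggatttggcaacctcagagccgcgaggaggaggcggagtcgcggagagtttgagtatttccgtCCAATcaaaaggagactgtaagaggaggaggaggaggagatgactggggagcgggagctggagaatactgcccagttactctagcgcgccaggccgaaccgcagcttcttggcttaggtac
SHMT1: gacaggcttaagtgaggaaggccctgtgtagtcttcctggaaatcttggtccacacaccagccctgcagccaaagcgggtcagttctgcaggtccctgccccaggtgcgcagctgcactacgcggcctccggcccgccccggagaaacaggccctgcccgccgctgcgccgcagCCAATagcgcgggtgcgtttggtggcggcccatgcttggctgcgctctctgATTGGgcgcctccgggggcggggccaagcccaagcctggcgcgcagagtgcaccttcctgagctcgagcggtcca
MTHFD1L: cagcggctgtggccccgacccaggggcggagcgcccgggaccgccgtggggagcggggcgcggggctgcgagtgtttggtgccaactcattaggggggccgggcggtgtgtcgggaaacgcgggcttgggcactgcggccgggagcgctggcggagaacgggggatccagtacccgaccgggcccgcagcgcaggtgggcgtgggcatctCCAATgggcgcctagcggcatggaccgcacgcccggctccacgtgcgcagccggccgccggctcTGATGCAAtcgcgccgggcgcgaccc
The PSAT1 window holds 3 CCAAT boxes, that of SHMT1 holds 2 and those of PHGDH and MTHFD1L hold 1 each, and 34.6% of all 35116 promoters in the table hold at least 1.

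Promoter sequences were matched for 6 of the 9 enzymes, on both strands. The C/EBP-ATF composite element, searched as TGATGNAA, was found in 3 overlapping promoters of MTHFD1L and in no other enzyme matched, and in 3.62% of all promoters. The E-box CACGTG was found in MTHFD1 and MTHFD1L (7.26% of all promoters). The antioxidant response element core, searched as TGACNNNGC, was found in MTHFD2 (13.3% of all promoters). In the MTHFD1L window shown, the CCAAT box, the E-box and the composite element shared no bases. A match describes letters in the window and not a bound site.

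The paralogs SHMT1 and SHMT2 catalyse the same reaction in the cytosol and in mitochondria, and moved in opposite directions. SHMT2 (ENSG00000182199, chr12:57229327-57234935, plus strand) was at 6.45, 6.56 and 5.87 FPKM in SF3B4 siRNA libraries and 7.83, 8.09 and 8.10 FPKM in control siRNA libraries, with no overlap. Its log2 fold change was -0.34 ± 0.08 (SE; limma adjusted p = 0.015). Without SF3B4 siRNA replicate 3 the call of SHMT2 was lost (log2 fold change -0.30, limma adjusted p = 0.057).

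SHMT1 (ENSG00000176974, chr17:18327860-18363563, minus strand) stood at 10.2, 9.46 and 10.3 FPKM in SF3B4 siRNA libraries and 7.80, 7.92 and 8.89 FPKM in control siRNA libraries. The groups did not overlap, but the lowest SF3B4 siRNA value was close to the highest control value. SHMT1 rose by 0.28 ± 0.09 on the log2 scale (SE; limma adjusted p = 0.038). This call was lost without SF3B4 siRNA replicate 1, 2 or 3 (limma adjusted p = 0.11, 0.055 and 0.11) and without control siRNA replicate 1 or 2 (limma adjusted p = 0.076 and 0.099).

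The ratio of SHMT2 to SHMT1 within a library was 0.631, 0.694 and 0.571 after SF3B4 siRNA and 1.00, 1.02 and 0.911 after control siRNA. The 2 transcripts were thus near parity in control siRNA libraries, and SHMT1 was the more abundant in each SF3B4 siRNA library.

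**Figure D2:**
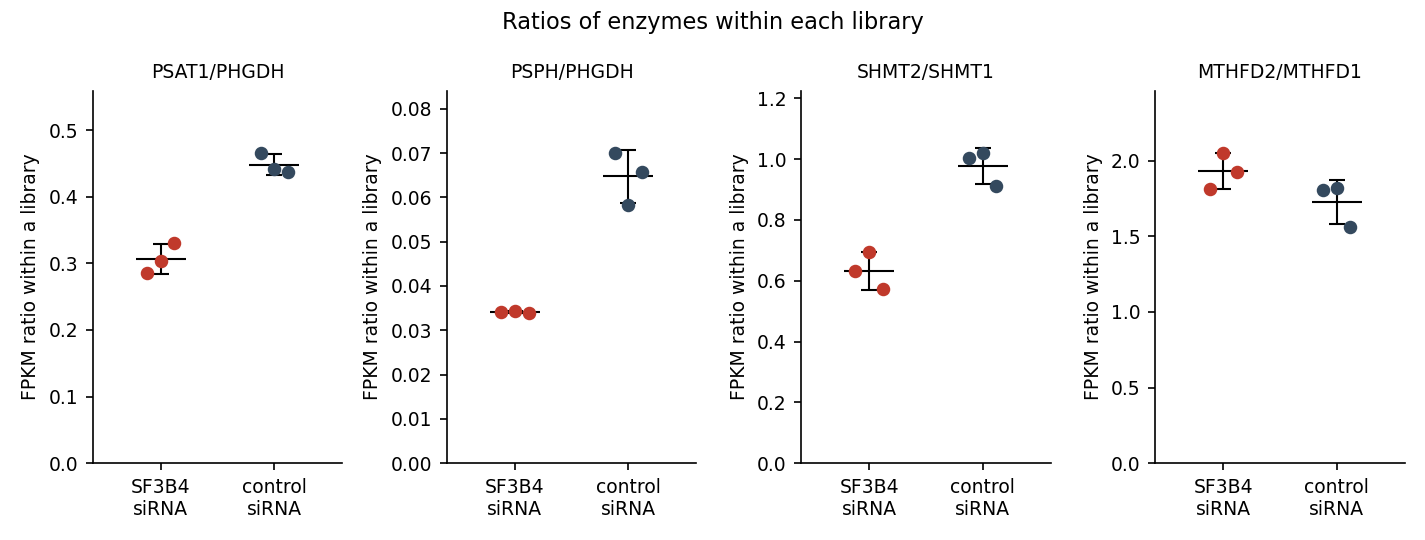
Ratios of FPKM values within each library (points) with group mean and SD (bars), SF3B4 siRNA left and control siRNA right; axes start at 0. PSAT1/PHGDH, PSPH/PHGDH and SHMT2/SHMT1 are lower in all 3 SF3B4 siRNA libraries than in any control siRNA library, while MTHFD2/MTHFD1 values of the groups overlap.

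None of the 3 tested MTHFD enzymes, which interconvert folate-bound carbon units, was called. MTHFD1, the trifunctional cytosolic enzyme (ENSG00000100714, chr14:64388031-64463457, plus strand), had 9.20, 7.73 and 9.51 FPKM in SF3B4 siRNA libraries and 11.9, 9.57 and 10.4 FPKM in control siRNA libraries. The groups almost touched, and the 95% interval of the log2 fold change ran from -0.53 to 0.00 (value -0.27, limma adjusted p = 0.11).

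MTHFD2, the mitochondrial dehydrogenase and cyclohydrolase (ENSG00000065911, chr2:74198562-74217565, plus strand), was at 16.7, 15.9 and 18.3 FPKM in SF3B4 siRNA libraries and 21.4, 17.4 and 16.3 FPKM in control siRNA libraries. The groups overlapped, and control siRNA replicate 1 was the highest. The log2 fold change of MTHFD2 was -0.11, with an interval from -0.37 to 0.16 (limma adjusted p = 0.51).

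MTHFD1L, the mitochondrial formate-producing synthetase (ENSG00000120254, chr6:150865549-151101887, plus strand), was at 8.72, 10.5 and 8.89 FPKM in SF3B4 siRNA libraries and 9.16, 9.16 and 9.92 FPKM in control siRNA libraries. The interval of its log2 fold change, -0.23 to 0.21, lay on both sides of 0 (limma adjusted p = 0.94). The sign of the MTHFD2 change turned without control siRNA replicate 1 (0.01). That of MTHFD1L turned in 6 alternatives, including TPM scaling (0.01), median centring (0.03) and quantile normalization (0.02).

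ALDH1L2, the mitochondrial enzyme that oxidises formyl-folate to carbon dioxide (ENSG00000136010, chr12:105019784-105084577, minus strand), did not pass the filter. It was listed at 0.440, 0.564 and 0.415 FPKM in SF3B4 siRNA libraries and 0.617, 0.611 and 0.508 FPKM in control siRNA libraries, and the groups overlapped. In the fit with no filter on low values ALDH1L2 was not called (log2 fold change -0.25, limma adjusted p = 0.42).

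**Figure D3:**
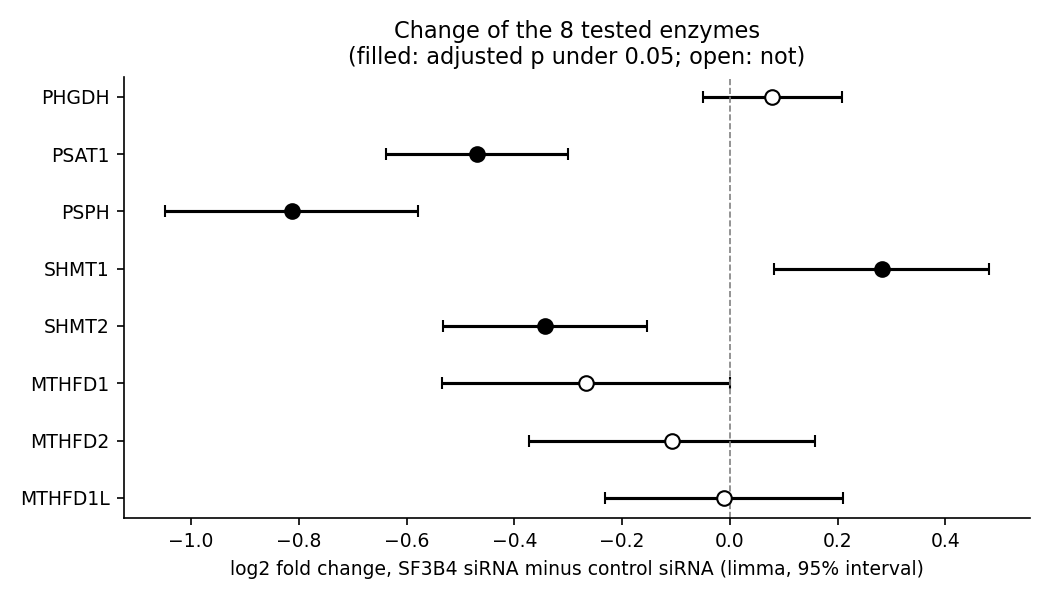
Log2 fold change (SF3B4 siRNA minus control siRNA) of the 8 tested enzymes with 95% intervals from limma; filled points passed an adjusted p of 0.05. PSPH, PSAT1 and SHMT2 lie below 0 and SHMT1 above it, and the intervals of PHGDH, MTHFD1, MTHFD2 and MTHFD1L reach 0.

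By mean level over the 6 libraries PHGDH (61.5 FPKM) came first, at the 94.0th percentile of the tested genes, followed by PSAT1 (23.1 FPKM) and MTHFD2 (17.7 FPKM). MTHFD1, MTHFD1L and SHMT1 followed at 9.72, 9.39 and 9.09 FPKM, with overlapping ranges, so their order is not set by these data. SHMT2 came next by mean (7.15 FPKM), with a range that overlapped those of SHMT1 and MTHFD1. It exceeded SHMT1 in control siRNA replicates 1 and 2. PSPH (3.01 FPKM) and ALDH1L2 (0.526 FPKM) came last. The ranges of PSAT1 and MTHFD2 overlapped as well, with PSAT1 the higher in each library. The 9 enzymes together summed to 138, 134 and 138 FPKM in SF3B4 siRNA libraries and 151, 144 and 142 FPKM in control siRNA libraries. PHGDH made up 47.3%, 46.5% and 45.1% of that sum after SF3B4 siRNA and 39.8%, 42.3% and 41.2% after control siRNA.

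The tested genes most like PHGDH over the 6 libraries were RRBP1 (Pearson r = 0.99), NMNAT1 (r = 0.99) and SCAMP1-AS1 (r = 0.98), as a description, since all values share the same libraries. They were picked for the highest r among all tested genes over 6 values, so a high r follows from the choice.

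The opposite-strand gene SLC4A5 covered 27.2% of the MTHFD2 exons and was at no more than 0.0265 FPKM. SHMT2 and MTHFD1 overlapped minor transcripts over 8.83% and 8.06% of their exons. SHMT1 overlapped the opposite-strand gene SMCR8 (6.15 to 8.08 FPKM over the libraries) over 2.69% of its exons. ALDH1L2 overlapped the opposite-strand gene C12orf45 (1.77 to 2.88 FPKM) over 1.70%. The part of these overlaps in the values was not tested. PHGDH, PSAT1, PSPH and MTHFD1L had no exon overlap in the annotation. The 14 listed pseudogenes of the enzymes reached at most 0.504 FPKM.

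A short sequence in 3′ UTRs was searched in the pathway genes because it had been picked, in earlier work on these libraries, from genes that fell. The 7-mers GCCTTCA and CCTTCAA, which share 6 letters, were searched on the transcript strand. At least 1 of them occurred in 3′ UTRs of 21.1% of 8381 searched tested genes, of 36.5% of those called lower and of 12.3% of those called higher. Since they were picked on these data, these shares are no separate evidence. PSPH, MTHFD1 and ALDH1L2 carried a 7-mer. PSAT1 and SHMT2, which fell, and SHMT1, which rose, did not, nor did PHGDH, MTHFD2 and MTHFD1L. Below, 30 bases around each site are given 5′ to 3′ on the transcript strand (GRCh38, GENCODE 29), with the 7-mer in capitals. They are shown for the 3 enzymes and for SLC25A38 and MTRR, 2 of the larger falls in the wider pathway. MTRR passed the filter on low values through the control libraries only, so a fall was the direction it could show. The 7-mers lie at chr7:56011118-56011124 (PSPH), chr14:64463421-64463427 (MTHFD1), chr12:105020866-105020872 (ALDH1L2), chr3:39396650-39396656 and chr3:39396696-39396702 (SLC25A38) and chr5:7900318-7900324 (MTRR).
PSPH: cggattcggcaGCCTTCAgtgaatattggt
MTHFD1: tccgaatttgcCCTTCAAatactaaataaa
ALDH1L2: gccactaatttGCCTTCActgaatacagag
SLC25A38, first: gtgttgcctttGCCTTCAgtaatcccctta
SLC25A38, second: acctgatttcaGCCTTCAgaatctccaaaa
MTRR: gagctaaggcaGCCTTCAgtccctatcagc
The part of these sites in the changes was not tested.

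Genes around the enzymes were followed in 9 lists (78 tested genes in all, each counted once). Of these 19 were called lower and 9 higher, beside 18.1% lower and 16.0% higher among all tested genes. The counts of the single lists, several of them small, are to be read against the same shares and the 34.1% called in either direction. They describe the lists and set none of them apart. Over all lists, a 7-mer was carried by 9 of the 19, by 1 of the 9 and by 11 of the 50 genes not called. The 19 lower genes and those of them with a 7-mer include MTRR, which passed the filter through the control libraries only. Among all searched tested genes the shares were 36.5% of those lower, 12.3% of those higher and 18.9% of those not called. Since the 7-mers were picked on these data, their counts here and in the single lists are no separate evidence.

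Of 11 tested carriers of folate, serine and glycine 6 were lower and 1 higher, with a median log2 fold change of -0.35, beside 18.1% lower and 16.0% higher of all tested genes. FOLR1 was listed at 0. The neutral amino acid carrier SLC1A4, which moves serine, fell to 2.65, 2.29 and 2.72 FPKM in SF3B4 siRNA libraries, against 5.47, 5.68 and 5.13 FPKM in control siRNA libraries (log2 fold change -1.06 ± 0.10, limma adjusted p = 0.00042). SLC25A38, the mitochondrial glycine carrier, was at 9.54, 9.70 and 9.65 FPKM in SF3B4 siRNA libraries and 18.8, 17.9 and 20.7 FPKM in control siRNA libraries (log2 fold change -0.98 ± 0.08, limma adjusted p = 0.00019). The groups lay far apart for both. SLC38A1, a glutamine and neutral amino acid carrier, fell to 66.8% of its control mean (limma adjusted p = 0.0091). SLC1A5, a related exchanger, rose to 194 ± 3.94 FPKM after SF3B4 siRNA, against 135 ± 19.2 FPKM after control siRNA (SD, n = 3 each; limma adjusted p = 0.0059). Of the 6 carriers called lower 4 carried a 7-mer (SLC1A4, SLC25A38, SLC38A1 and SLC46A1), and SLC19A1 and SLC6A9 did not. SLC1A5 carried none.

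In the rest of the folate cycle 3 of 8 tested genes were lower and 2 higher (median -0.07), again beside 18.1% and 16.0% of all tested genes. MTRR, which reactivates methionine synthase, stood at 0.852, 0.619 and 0.835 FPKM in SF3B4 siRNA libraries and 1.83, 1.57 and 1.58 FPKM in control siRNA libraries (log2 fold change -1.03 ± 0.16, limma adjusted p = 0.0025). It passed the filter through the control libraries only, so a fall was the direction it could show. FPGS, which adds glutamates to folate, fell to 79.0% of its control mean (limma adjusted p = 0.049), a call lost in 12 of 16 alternatives.

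TYMS, thymidylate synthase, which spends folate carbon on DNA synthesis, fell to 19.3, 15.5 and 20.3 FPKM in SF3B4 siRNA libraries, against 30.6, 29.1 and 30.6 FPKM in control siRNA libraries (log2 fold change -0.72 ± 0.10, limma adjusted p = 0.0020). Its exons overlapped ENOSF1 (mean 2.86 FPKM) over 39.1% of their length. It was the 1 called gene of 6 for thymidylate supply (median -0.33). The log2 fold changes of DUT, TK1, DCTD and TK2 were -0.33, -0.33, -0.51 and 0.19, none called (limma adjusted p = 0.067, 0.073, 0.19 and 0.23).

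Purine synthesis uses formyl-folate at the steps of GART and ATIC. Of 5 tested purine genes 2 were lower, beside 18.1% of all tested genes. GART fell to 74.5% and PFAS to 72.2% of the control mean (limma adjusted p = 0.017 and 0.014). The GART call was lost without SF3B4 siRNA replicate 1 or 2 (limma adjusted p = 0.054 and 0.053), that of PFAS without SF3B4 siRNA replicate 2 or control siRNA replicate 3 (limma adjusted p = 0.051 and 0.052). PAICS, ADSL and ATIC had log2 fold changes of -0.21, 0.23 and 0.01 and were not called.

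In the methionine cycle and transsulfuration, 2 of 8 tested genes were lower and 2 higher (median 0.01), beside 18.1% lower and 16.0% higher of all tested genes. The lower ones were AHCY and MTRR, which is also in the folate cycle list and passed the filter through the control libraries only. AHCYL2, a homologue of the enzyme that splits S-adenosylhomocysteine, was at 3.83, 4.48 and 4.26 FPKM in SF3B4 siRNA libraries and 2.70, 1.75 and 1.66 FPKM in control siRNA libraries (log2 fold change 1.04 ± 0.18, limma adjusted p = 0.0045). AHCY itself had a log2 fold change of -0.33 (limma adjusted p = 0.049), with overlapping groups, and this call was lost in 9 of 16 alternatives. The 2 tested genes of glycine cleavage, GCSH and DLD, had log2 fold changes of -0.09 and -0.06 and were not called, and GLDC and AMT were below 1 FPKM throughout.

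None of 10 tested regulators was called (median 0.05). ATF4 was at 97.1, 105 and 107 FPKM in SF3B4 siRNA libraries and 87.7, 95.0 and 89.4 FPKM in control siRNA libraries, without overlap (log2 fold change 0.18 ± 0.06, limma adjusted p = 0.060). It passed in 2 of 16 alternatives, after rescaling to TPM and after median centring (limma adjusted p = 0.044 and 0.038). After quantile normalization it did not (limma adjusted p = 0.080).

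Of 18 tested ATF4 targets of the amino acid response 2 rose and 5 fell (median -0.09), a share near the 34.1% called among all tested genes. The stress genes DDIT3 and SESN2 rose to 166% and 154% of the control mean (limma adjusted p = 0.0044 and 0.0037). The exons of DDIT3 overlapped those of MARS (mean 12.8 FPKM) over 27.2% of their length. PYCR1, which makes proline, and SLC3A2, the heavy chain of amino acid exchangers, fell to 58.8% and 65.2% (limma adjusted p = 0.012 and 0.0011). Of the 5 called lower, PYCR1, SLC3A2 and STC2 carried a 7-mer, and ASNS and ALDH18A1, at 76.7% and 68.6% of the control mean, did not.

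Glycolysis genes, of steps above and below 3-phosphoglycerate, were called in 5 of 14 cases, 3 higher and 2 lower (median 0.06). This share was near the 34.1% of all tested genes. PFKL, ALDOA and HK1 rose to 173%, 129% and 124% of the control mean (limma adjusted p = 0.0015, 0.0044 and 0.0056), and 42.3% of the ALDOA exons overlapped AC093512.2. PGAM1, which acts on the same 3-phosphoglycerate as PHGDH, fell to 276 ± 12.7 FPKM after SF3B4 siRNA, against 334 ± 23.2 FPKM after control siRNA (SD, n = 3 each; limma adjusted p = 0.018). The PGAM1 call was lost without SF3B4 siRNA replicate 1 or 3 (limma adjusted p = 0.065 and 0.055) and without the trend and robust options (limma adjusted p = 0.051). With a minimum fold change of 1.2, PGAM1, ALDOA and HK1 all lost their calls (limma adjusted p = 1.0, 0.31 and 0.62).

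**Figure D4:**
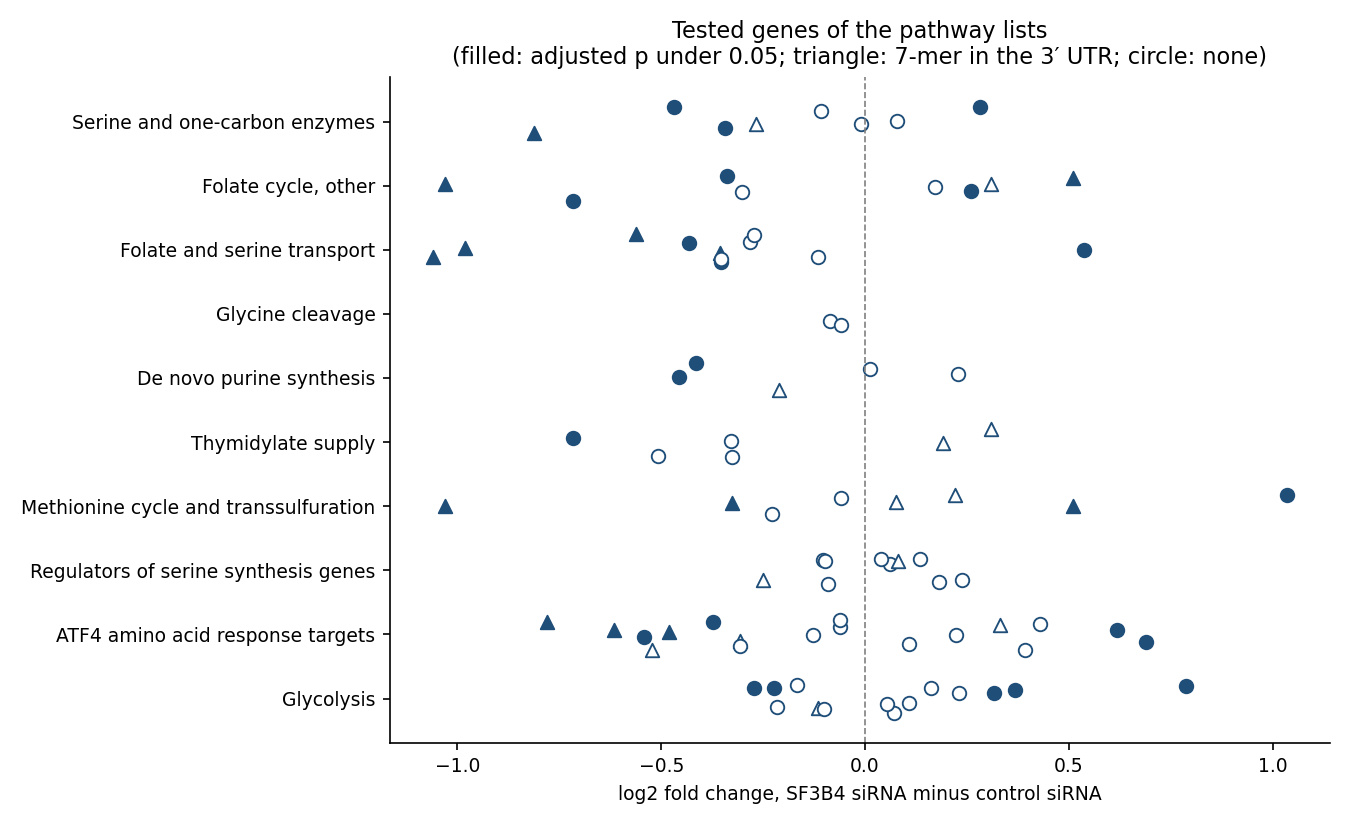
Log2 fold change (SF3B4 siRNA minus control siRNA) of every tested gene in the enzyme group and 9 pathway lists, 1 symbol per gene; filled symbols passed an adjusted p of 0.05, triangles carry GCCTTCA or CCTTCAA in a 3′ UTR and circles do not; vertical scatter is for legibility. In the transport list 6 of 11 genes are filled and below 0, and no regulator is filled. Among all tested genes 18.1% were called lower and 34.1% in either direction.

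For single genes, an exact two-sided permutation test of log2 values gave p = 0.1 for PHGDH, PSAT1, PSPH, SHMT1, SHMT2 and MTHFD1, the smallest p that 3 against 3 libraries allow. The same exact permutation test gave p = 0.6 for MTHFD2, 1.0 for MTHFD1L and 0.2 for ALDH1L2.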

How the data were processed

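The authors deposited 1 FPKM value per Ensembl gene and library for 50868 genes. The submitters' processing notes list HISAT2 2.0.4, StringTie 1.3.0 and GRCh38 without saying which step each served. Nothing in the sources used here gives the annotation or the strand setting. Per the labels' protocols, libraries were built from total RNA with a kit for Illumina. The titles call the replicates biological but name no separate cultures, and every p-value therefore reflects the spread of these samples alone.

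The tables were joined by identifier, and symbols were found for 49659 identifiers. FPKM values are not counts, so log2(FPKM + 0.1) was tested with limma 3.58.1 in R 4.3.3 (empirical Bayes with trend and robust options, two-sided, Benjamini-Hochberg over the tested genes, threshold 0.05) across the genes that reached 1 FPKM in 3 or more libraries. Fold changes on this scale understate changes of low genes. The script was tested on simulated data. In single-exon genes, FPKM times length moved in steps of 1 fragment, which gave the implied depth; among values of no more than 20 fragments, 99.1% to 99.5% were whole to a tolerance of 0.02. Intervals from limma cover the spread between libraries.

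The 9 enzymes and the lists were chosen with earlier results of these data known. Of the other lists, all members were named where 6 or fewer were tested, otherwise up to 4 called members with the largest change, plus a few set by name (ATF4 and TYMS among them) and the 3 genes most like PHGDH. Some genes that the rule names are not reported here. Positions, exon overlaps and 3′ UTRs came from GENCODE 29 (any protein-coding transcript with a complete end), and promoters from RefSeq. SLC25A38 and MTRR sites were chosen for display after their values were seen. Alternatives were other pseudocounts, filters, scalings and variance options, a replicate block, a minimum fold change, and leaving out each library.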

Additional observations from a re-analysis of the deposited data

How the results depend on the processing

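In the fit described 3298 genes and 4 enzymes were called, and 16 alternatives were run. Where only genes averaging 5 FPKM or more were tested, 1967 genes were called. When the test demanded a fold change above 1.2, 1113 genes and 1 enzyme, PSPH, were called. Leaving out 1 library at a time gave 2447 to 3096 genes and 2 to 4 enzymes, with PSAT1 and PSPH called each time. No enzyme that was called changed direction. The minimum fold change also ended the calls of GART, PFAS, PYCR1, SLC1A5 and SLC38A1 (limma adjusted p = 0.35, 0.25, 0.070, 0.095 and 0.11). PSPH kept its call in all 15 alternatives that tested it (log2 fold change -0.87 to -0.62), and PSAT1 lost its call with the minimum fold change alone (limma adjusted p = 0.081). SHMT2 lost its call there (limma adjusted p = 0.57) and without SF3B4 siRNA replicate 3. SHMT1 lost its call in 8 of 16, also without the filter (limma adjusted p = 0.079) and with the minimum fold change (limma adjusted p = 0.97). PHGDH, MTHFD1, MTHFD2 and MTHFD1L were called in none. SF3B4 stayed between -2.21 and -2.04.

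With the replicate number as a block, 2827 genes and 3 enzymes were called, SHMT1 being lost (limma adjusted p = 0.062), while DCTD was gained (limma adjusted p = 0.024). Correlations of deviations from the group mean were -0.08, 0.02 and -0.12 for same-numbered libraries and -0.07 to 0.14 for the other pairs. Deviations from a mean of 3 libraries are tied together, so they cannot show whether same-numbered libraries shared a culture or a day. Genes near or below 1 FPKM, ALDH1L2 and MTRR among them, rest on few fragments per kilobase of transcript (17.5 to 18.5 at 1 FPKM).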
